A study of Mus musculus with 9 samples.

Results

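The genes described here are 44 lysosomal genes, chosen as a list of soluble enzymes, lysosomal membrane proteins, subunits of the proton pump and regulators. They are a small share of the 19938 genes that the arrays name through a probe set with a single gene symbol, and all 44 were measured. Lysosomes are acidic compartments in which soluble hydrolases break down proteins, lipids and sugar chains. A membrane ATPase pumps protons in to keep the lumen acidic, membrane glycoproteins line the compartment and move products out, and the transcription factor TFEB switches on many of the genes together. In conventional dendritic cells, the antigen-presenting cells studied here, lysosomal proteases trim antigens and the invariant chain for presentation on MHC class II, and the compartment is remodelled when the cells mature.

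The study measured total RNA of dendritic cells sorted from mouse spleen (strain 129SvEv/Tac) on 9 Affymetrix arrays. Type 2 conventional dendritic cells (cDC2) came from wild-type (WT) mice and from Batf-/- Batf3-/- mice (called DKO here), which lack a pair of AP-1 family transcription factors. Each genotype was profiled resting and activated, with 2 arrays per group. Activated cells had 1 h of IFN-gamma at 100 ng/ml and then 3 h of E. coli LPS at 1 µg/ml. A lone array of resting WT type 1 cells (cDC1) completes the set. Whether arrays of one group came from separate mice is not in the labels, so each p-value measures only how these samples scatter, and that scatter may be technical. Whether resting cells spent the same hours in culture is not stated either.

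Values are log2 intensities, in which a difference of 1 is a 2-fold change. Every array was scaled by the authors to a nearly common distribution, so a change in total RNA per cell cannot be seen. In sorted bulk cells, fewer cells of a type and less RNA per cell cannot be told apart either. The 9 arrays had medians of 53.4 to 55.6 on the linear scale, and replicate arrays correlated at 0.969 to 0.980 over the 10728 genes tested. Batf read 5.31 to 5.44 on the 4 DKO arrays and 6.74 to 9.07 on the WT cDC2 arrays, and Batf3 6.43 to 7.17 against 7.58 to 9.92. Where the probes lie relative to the deleted parts is not given in the sources used here. Of a 15-gene list of activation markers, 13 rose after IFN-gamma and LPS and none fell. The cDC1 marker Xcr1 read 9.33 on the cDC1 array and at most 4.73 on the cDC2 arrays. The 8-gene cDC1 list averaged 8.52 on the cDC1 array and 6.19 to 7.15 on cDC2 arrays. The largest rise on that list after activation was 3.98 (mean of both genotypes). The 8-gene cDC2 list averaged 5.27 on the cDC1 array and 6.54 to 7.16 on cDC2 arrays. The 5 pan-dendritic genes averaged 10.70 and 10.44 to 10.96 in the same order. On each cDC2 array 3 to 5 of the 8 cDC1 genes lay below the filter on dim genes. Macrophage markers had a list mean of 6.16 to 6.68 on the 9 arrays, and 7 of 10 passed that filter in a group mean. So did 5 of 6 monocyte genes (list means 6.31 to 7.03) and 3 of 4 plasmacytoid dendritic genes (6.41 to 7.53). Of neutrophil genes 4 of 6 passed (6.37 to 6.75) and of T cell genes 2 of 4 (5.11 to 5.36). None of 5 B cell genes, 4 NK cell genes and 1 erythroid gene on the arrays passed. Replicate 2 of resting WT cDC2 stood apart: its interferon-stimulated genes averaged 11.18, against 9.78 in replicate 1, and results are also given without it.

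After IFN-gamma and LPS, 23 of the 44 lysosomal genes were lower, well beyond Lipa, Dpp7 and Ctsd, and 3 were higher. Because the culture of resting cells is not stated, treatment and hours in culture cannot be told apart. The count of 23 is for the mean of both genotypes, activated against resting cDC2. It makes 52.3% of the list, where 21.7% of all genes tested were lower. Ctsc, Cln3 and Gla were higher (6.82% of the 44, against 10.6% of all genes). The remaining 18 did not pass the test. The call is limma's moderated test over 4 resting and 4 activated arrays, at an adjusted p below 0.05 after Benjamini-Hochberg adjustment over all 10728 genes. The median difference of the 44 genes was -0.51 and that of all genes tested -0.08. Lipa, Dpp7 and Ctsd were known from earlier results to be low after activation. Without them, 20 of 41 genes (48.8%) were lower, and the median was -0.42.

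The direction was broadly shared: 37 of the 44 differences were below 0, against 60.7% of all genes tested. For 21 of the 44 genes every activated cDC2 array lay below every resting one, where 23.3% of all genes did so. Without replicate 2 of resting WT cDC2, the median of the 44 genes was -0.45 and that of all genes tested -0.08. Over the 8 arrays left out in turn the median of the 44 ran from -0.59 to -0.42. That of all genes ran from -0.08 to -0.07. A fit blocked on replicate number called 31 lower and 4 higher, and it called 3833 lower and 1823 higher among all 10728 genes. With arrays centred on their 75th percentile the median of all genes moved from -0.08 to 0.04, and 20 lysosomal genes were lower and 5 higher. Of all 10817 genes tested in that setting, 1322 were lower and 1693 higher. Under that centring 43.8% of all called genes were lower, against 67.2% otherwise.

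**Figure D1:**
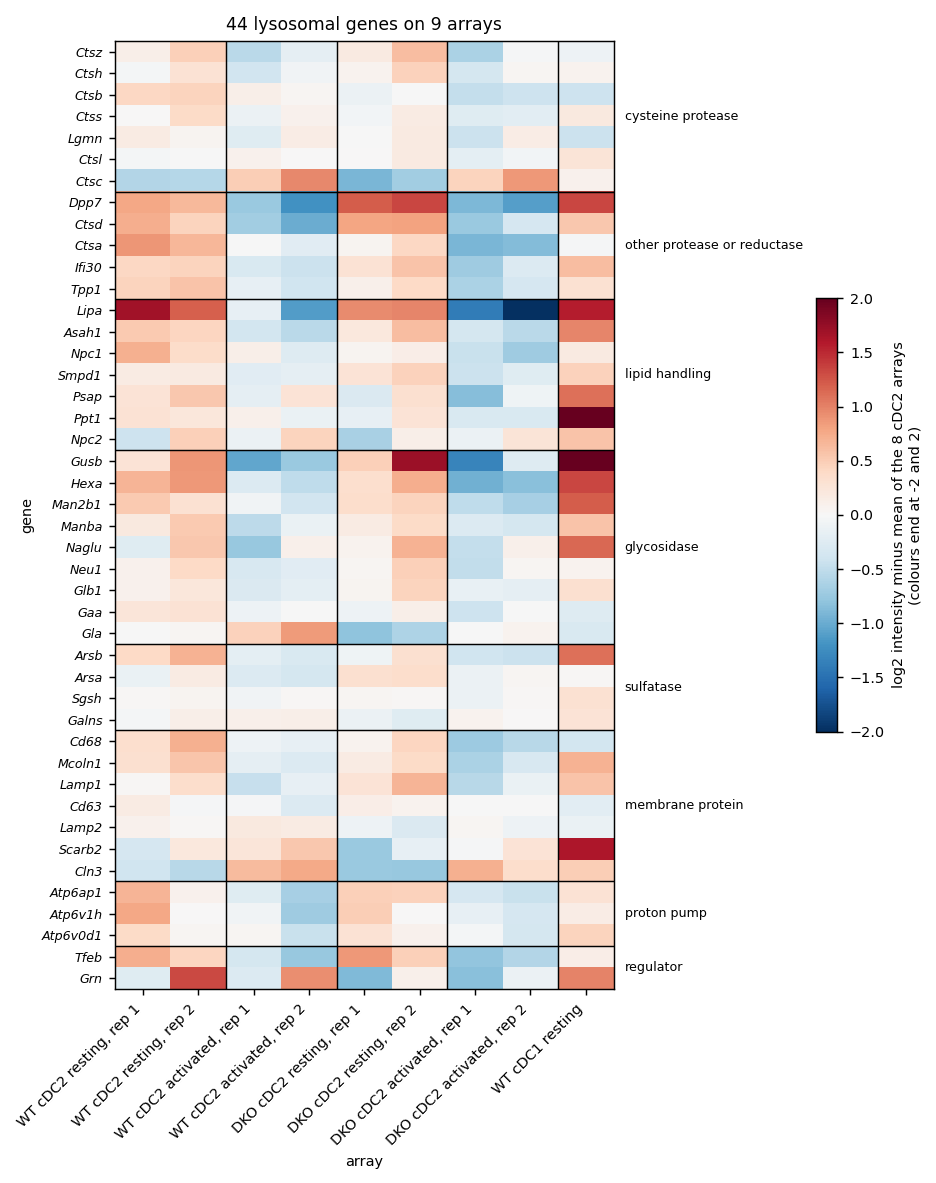
Log2 intensity of the 44 lysosomal genes (rows, grouped by role) on the 9 arrays (columns), as the difference from each gene's mean over the 8 cDC2 arrays; colours end at -2 and 2. Blue fills most cells of the 4 activated cDC2 columns, Ctsc, Cln3 and Gla run the other way, and Ppt1 and Gusb reach the end of the scale on the cDC1 array.

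The promoters of these genes are known for a short palindromic element, named CLEAR, that TFEB family proteins bind and that contains the E-box CACGTG. RefSeq promoter windows (GRCm38.p6, 250 bases before to 50 after each gene's start) were at hand for 38 of the 44 genes, and both strands were searched. Some genes have more than 1 annotated start and so more than 1 window (44 windows for the 38 genes), and a gene counts if any of its windows holds the motif. GTCACGTG, the E-box with 2 more bases of the element, was found for 13 of 38 lysosomal genes (34.2%) and in 2.55% of 26994 genes. Per window the shares were 29.5% and 2.24%. CACGTG, which every GTCACGTG contains, was found in 16 (42.1%) and in 8.09% of all genes. The full 10-base palindrome was found in 1 lysosomal gene, Cln3, and in 0.37% of all genes. Genes that fell and genes that did not carried the site about equally often: GTCACGTG was found for 7 of 20 genes that fell (35.0%) and for 6 of 18 of the others (33.3%). The windows below, each 60 bases with 1 E-box in capitals, show the site in 4 genes that fell (Ctsd, Ctsa, Ifi30 and Mcoln1) and in 2 that rose (Cln3 and Gla). Those shown for Ctsa and Mcoln1 each hold another CACGTG, left in lower case. The windows of Ctsa and Cln3 belong to alternative starts, 901 and 2581 bases inside the annotated gene, and the positions are counted from those starts. A match describes the letters only.
Ctsd, chr7:142387893-142387952, minus strand, 98 bases before the start: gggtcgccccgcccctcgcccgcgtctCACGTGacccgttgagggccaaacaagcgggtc
Ctsa, chr2:164833751-164833810, plus strand, 5 bases after an alternative start: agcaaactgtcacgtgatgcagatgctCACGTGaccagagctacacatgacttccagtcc
Ifi30, chr8:70766827-70766886, minus strand, 196 bases before the start: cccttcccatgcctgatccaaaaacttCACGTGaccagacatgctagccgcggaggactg
Mcoln1, chr8:3500447-3500506, plus strand, 45 bases before the start: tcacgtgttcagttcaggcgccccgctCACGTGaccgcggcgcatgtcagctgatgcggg
Cln3, chr7:126583325-126583384, minus strand, 121 bases before an alternative start: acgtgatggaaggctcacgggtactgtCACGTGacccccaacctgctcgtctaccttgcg
Gla, chrX:134601167-134601226, minus strand, 194 bases before the start: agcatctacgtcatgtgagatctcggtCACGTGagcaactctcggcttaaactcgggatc

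Of the regulators on the list, Tfeb itself fell. It read 8.18 and 7.88 at rest and 7.09 and 6.69 after activation in WT, and 8.31 and 7.93 at rest and 6.67 and 6.86 after activation in DKO arrays. Every activated array lay below every resting one, and the mean difference was -1.25 ± 0.14 (SE from limma, 4 arrays against 4, adjusted p = 0.00242), or 2.38-fold lower. Grn, which encodes progranulin, a secreted and lysosomal glycoprotein, differed by -0.15 ± 0.46 (adjusted p = 0.827). Its spread came with the replicate number: replicate 2 exceeded replicate 1 in all 4 groups, for example 10.81 against 9.25 in resting WT.

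The other proteases and the thiol reductase Ifi30 moved one way: all 5 genes fell, with a median difference of -1.01. Dpp7, a dipeptidyl peptidase, read 8.42 and 8.29 at rest and 6.90 and 6.44 after activation in WT, and 8.86 and 8.99 at rest and 6.76 and 6.55 after activation in DKO arrays. It fell by 1.98 ± 0.12 on the log2 scale, or 3.94-fold (adjusted p = 0.000453). Ctsd, the main aspartic protease of the lysosome, read 8.01 and 7.73, then 6.59 and 6.29 in WT, and 8.06 and 8.08, then 6.54 and 6.95 in DKO arrays, a difference of -1.38 ± 0.13 (adjusted p = 0.00136). The resting and activated arrays of both genes were separate in each genotype.

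Ctsa, the serine carboxypeptidase that also protects beta-galactosidase and neuraminidase, read 9.51 and 9.29 at rest and 8.62 and 8.41 after activation in WT, and 8.68 and 9.05 at rest and 7.72 and 7.76 after activation in DKO arrays. Its mean difference was -1.01 ± 0.11 (adjusted p = 0.00213). Tpp1, a tripeptidyl peptidase, went from 8.44 and 8.56 to 7.83 and 7.60 in WT and from 8.09 and 8.39 to 7.36 and 7.66 in DKO arrays, and fell by 0.76 ± 0.11 (adjusted p = 0.00533). Ifi30 encodes GILT, the interferon-inducible reductase that opens disulphide bonds of antigens. It read 12.11 and 12.14 at rest and 11.40 and 11.27 after activation in WT, and 11.99 and 12.27 at rest and 10.99 and 11.42 after activation in DKO arrays. Ifi30 thus fell by 0.86 ± 0.12 (adjusted p = 0.00439). In the same mean of both genotypes 14 of 21 interferon-stimulated genes rose, against 10.6% of all genes. In WT alone 1 of the 21 rose, against 3.97% of all genes, and in DKO alone 10, against 5.82%.

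The cysteine proteases, which include the enzymes that cut the invariant chain, were mixed: of 7, Ctsb and Ctsz fell, Ctsc rose and 4 did not pass. Ctsb read 11.79 and 11.82 at rest and 11.49 and 11.41 after activation in WT, and 11.25 and 11.36 at rest and 10.89 and 10.96 after activation in DKO arrays. Within each genotype its resting arrays were the higher ones, but activated WT lay above resting DKO, and the difference was -0.36 ± 0.07 (adjusted p = 0.00938). Ctsz, a carboxypeptidase, read 11.85 and 12.20, then 11.18 and 11.55 in WT, and 11.90 and 12.35, then 11.09 and 11.70 in DKO arrays, and fell by 0.70 ± 0.19 (adjusted p = 0.0347). Its call was lost without any 1 of 6 of the 8 arrays (adjusted p 0.0534 to 0.105) and kept without replicate 1 of resting DKO or replicate 2 of activated DKO. It was also lost with 75th-percentile centring (0.0558) and with no filter on dim genes (0.0592).

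Ctsc went the other way. This dipeptidyl peptidase, which activates the serine proteases of cytotoxic granules, read 8.75 and 8.77 at rest and 9.84 and 10.31 after activation in WT arrays. In DKO it read 8.42 and 8.65 resting and 9.78 and 10.20 activated, so that no activated array overlapped a resting one. The rise was 1.38 ± 0.14, or 2.61-fold (adjusted p = 0.00186).

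The invariant chain protease Ctss differed by only -0.25 ± 0.11 (95% interval -0.51 to 0.02, adjusted p = 0.136). Its 8 cDC2 arrays ran from 11.17 to 11.80 and overlapped between states. Ctsh, an aminopeptidase, differed by -0.38 ± 0.15 (adjusted p = 0.101). With the replicate number as a block the adjusted p was 0.0247 for Ctss and 0.00174 for Ctsh. Lgmn, the asparaginyl endopeptidase that makes the first cut in some antigens, differed by -0.19 ± 0.16 (adjusted p = 0.384), an interval of -0.57 to 0.18. Ctsl, at 5.70 to 6.07 on the cDC2 arrays and near the filter on dim genes, differed by -0.07 ± 0.07 (adjusted p = 0.491).

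Among the 7 genes of lipid breakdown and export, Lipa, Asah1, Smpd1 and Npc1 fell, none rose, and the median difference was -0.53. Lipa, the acid lipase that frees cholesterol and fatty acids from lipoprotein lipids, had the largest fall of all 44 genes. It read 11.95 and 11.46 at rest and 10.10 and 9.14 after activation in WT, and 11.20 and 11.24 at rest and 8.87 and 8.17 after activation in DKO arrays. The difference was -2.39 ± 0.26 (adjusted p = 0.00213), or 5.24-fold lower, and no arrays overlapped. The acid ceramidase Asah1 read 8.13 and 8.03, then 7.22 and 7.06 in WT, and 7.81 and 8.22, then 7.25 and 7.06 in DKO arrays, a fall of 0.90 ± 0.11 (adjusted p = 0.00309).

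The acid sphingomyelinase Smpd1, a dimmer gene, read 6.46 and 6.47, then 6.06 and 6.12 in WT, and 6.56 and 6.75, then 5.87 and 6.06 in DKO arrays, and fell by 0.53 ± 0.08 (adjusted p = 0.0052). Npc1, the membrane protein that exports cholesterol, read 9.14 and 8.80, then 8.55 and 8.17 in WT, and 8.49 and 8.57, then 7.99 and 7.72 in DKO arrays. It fell by 0.64 ± 0.13 (adjusted p = 0.0136; 0.0503 without replicate 2 of resting DKO), and 1 of its activated WT arrays lay above the lower resting DKO array. Its soluble partner Npc2, which hands cholesterol to it, did not pass: it differed by 0.24 ± 0.28 (adjusted p = 0.536), and its arrays ran from 10.03 to 11.15.

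Psap, the precursor of the saposins that present lipids to hydrolases, differed by -0.42 ± 0.23 (adjusted p = 0.204, 0.00785 with the replicate block). The palmitoyl-thioesterase Ppt1 differed by -0.31 ± 0.12 (adjusted p = 0.0824, and 0.0321 without replicate 1 of resting DKO). For both genes resting and activated arrays overlapped.

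Of the 9 glycosidases, which remove sugars one at a time from glycolipids and glycoproteins, Hexa, Gusb, Man2b1, Manba and Glb1 fell and Gla rose. Hexa, a subunit of beta-hexosaminidase, read 9.26 and 9.45 at rest and 8.30 and 8.06 after activation in WT, and 8.91 and 9.30 at rest and 7.61 and 7.73 after activation in DKO arrays. The difference was -1.30 ± 0.12 (adjusted p = 0.00124), or 2.46-fold lower. Gusb, the beta-glucuronidase, read 7.34 and 7.95, then 6.02 and 6.32 in WT, and 7.55 and 8.78, then 5.75 and 6.81 in DKO arrays. No arrays overlapped between states, but replicate 2 was above replicate 1 in every group, and the fall of 1.68 ± 0.35 (adjusted p = 0.0158) had an adjusted p of 0.0511 without replicate 1 of activated WT.

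Man2b1, an alpha-mannosidase, read 9.85 and 9.63, then 9.24 and 8.95 in WT, and 9.67 and 9.77, then 8.81 and 8.66 in DKO arrays, and fell by 0.81 ± 0.10 (adjusted p = 0.00286). The beta-mannosidase Manba read 5.66 and 5.99, then 4.94 and 5.32 in WT, and 5.63 and 5.84, then 5.18 and 5.11 in DKO arrays. Its fall of 0.64 ± 0.12 (adjusted p = 0.0117) lay at dim levels, since its mean exceeded the filter only on the cDC1 array. Glb1, the beta-galactosidase, read 7.30 and 7.45, then 6.93 and 7.02 in WT, and 7.29 and 7.68, then 7.08 and 7.05 in DKO arrays. Its fall of 0.41 ± 0.10 (adjusted p = 0.0272) was close to the threshold. Leaving out any 1 array other than replicate 1 of resting DKO ended the call (adjusted p 0.0528 to 0.0754), and so did 75th-percentile centring (0.0743) and quantile normalization (0.0636).

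Gla, the alpha-galactosidase that clears globotriaosylceramide, rose. It read 8.32 and 8.36 at rest and 8.78 and 9.18 after activation in WT, and 7.52 and 7.71 at rest and 8.32 and 8.40 after activation in DKO arrays. Activated arrays were the higher ones in each genotype, although activated DKO only reached the level of resting WT, and the rise was 0.69 ± 0.11 (adjusted p = 0.006). Gaa, Naglu and Neu1 had differences of -0.27 ± 0.11, -0.52 ± 0.29 and -0.50 ± 0.16 and did not pass (adjusted p = 0.112, 0.213 and 0.0571). With the replicate block their adjusted p was 0.0234, 0.00123 and 0.00278. Without replicate 2 of activated DKO, Gaa and Neu1 passed too (0.0393 and 0.0387).

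The 4 sulfatases divided evenly between genes that fell and genes that did not pass. Arsb, which removes sulfate from dermatan sulfate, read 7.78 and 8.07, then 7.18 and 7.07 in WT, and 7.29 and 7.70, then 6.97 and 6.95 in DKO arrays, a fall of 0.67 ± 0.12 (adjusted p = 0.00892). It was the one gene of the 44 with more than 1 probe set, and the brighter was used. Arsa, which desulfates sulfatide, read 6.72 and 7.02, then 6.57 and 6.49 in WT, and 7.17 and 7.19, then 6.74 and 6.89 in DKO arrays, a fall of 0.35 ± 0.09 (adjusted p = 0.0272). That call was kept only without replicate 2 of activated DKO or replicate 1 of resting WT, and the adjusted p was 0.0568 to 0.085 without any other array, 0.0767 with 75th-percentile centring and 0.0529 with quantile normalization. Galns differed by 0.15 ± 0.07 (adjusted p = 0.163) and Sgsh, a dim gene, by -0.07 ± 0.07 (adjusted p = 0.441). Galns passed with 75th-percentile centring (0.038) and with quantile normalization (0.0406), and under the former the sign of Sgsh and of Ctsl turned.

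**Figure D2:**
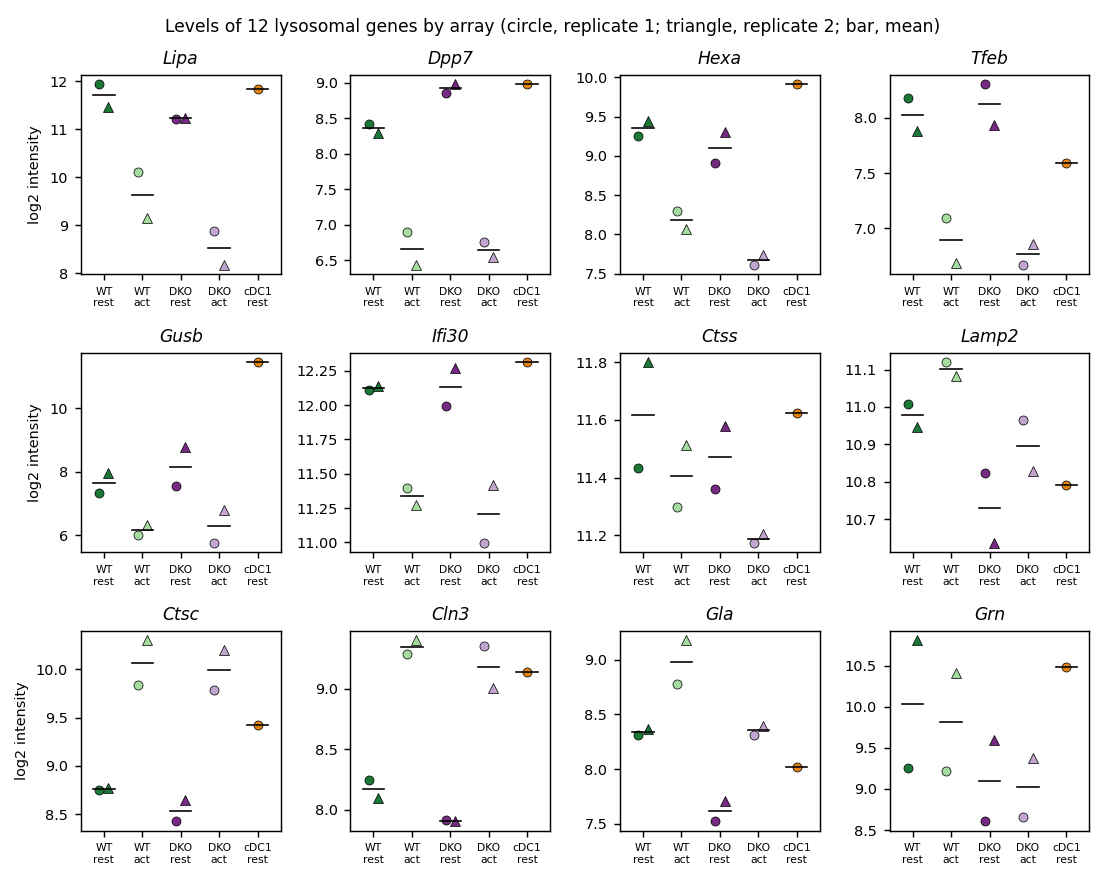
Log2 intensity of 12 of the lysosomal genes on each array (vertical axes differ; circles are replicate 1, triangles replicate 2, bars the group mean). Lipa, Dpp7, Hexa, Tfeb, Gusb and Ifi30 have every activated cDC2 array below every resting one, Ctsc and Cln3 the reverse, Ctss and Lamp2 overlap, and Grn separates by replicate number.

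The 7 membrane proteins held changes in both directions: Cd68, Mcoln1 and Lamp1 fell and Cln3 rose, with a median of -0.16. Cd68, a heavily glycosylated macrophage and dendritic cell protein, read 9.88 and 10.26, then 9.46 and 9.38 in WT, and 9.63 and 9.98, then 8.83 and 9.0 in DKO arrays, and fell by 0.77 ± 0.12 (adjusted p = 0.00668). The calcium channel gene Mcoln1 read 8.83 and 9.07, then 8.33 and 8.23 in WT, and 8.67 and 8.89, then 7.87 and 8.19 in DKO arrays, a fall of 0.71 ± 0.11 (adjusted p = 0.00607). Both genes had separate resting and activated arrays.

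Of Lamp1 and Lamp2, the main glycoproteins of the lysosomal membrane, only the first passed. Lamp1 read 9.39 and 9.73, then 8.91 and 9.21 in WT, and 9.64 and 10.05, then 8.81 and 9.24 in DKO arrays, and fell by 0.66 ± 0.16 (adjusted p = 0.0239). The call was lost without replicate 1 of activated DKO (0.0724), replicate 2 of resting DKO (0.0734), replicate 1 of activated WT (0.07) or replicate 2 of resting WT (0.0632). Lamp2 read 11.01 and 10.95, then 11.12 and 11.08 in WT, and 10.82 and 10.64, then 10.96 and 10.83 in DKO arrays. Its difference of 0.15 ± 0.07 (95% interval -0.03 to 0.33, adjusted p = 0.179) did not pass, and the difference between the 2 genes' changes was not tested.

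Cln3, a membrane protein whose loss causes juvenile Batten disease, read 8.25 and 8.10 at rest and 9.29 and 9.40 after activation in WT, and 7.91 and 7.90 at rest and 9.36 and 9.01 after activation in DKO arrays. All activated arrays were above all resting ones, and the rise was 1.22 ± 0.10, or 2.34-fold (adjusted p = 0.000956). Scarb2, the receptor that carries glucocerebrosidase to lysosomes, differed by 0.51 ± 0.19 (adjusted p = 0.0782). It passed with the replicate block (0.00173) and with 75th-percentile centring (0.0434). The tetraspanin Cd63 differed by -0.16 ± 0.08 (adjusted p = 0.185), with cDC2 arrays from 12.16 to 12.59.

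All 3 proton pump genes had negative differences, and Atp6ap1, an accessory subunit, fell. It read 9.85 and 9.26 at rest and 8.94 and 8.51 after activation in WT, and 9.65 and 9.63 at rest and 8.84 and 8.73 after activation in DKO arrays, a fall of 0.84 ± 0.16 (adjusted p = 0.0107). Atp6v1h and Atp6v0d1 differed by -0.64 ± 0.23 and -0.39 ± 0.15 (adjusted p = 0.0787 and 0.0926). With the replicate block both passed (0.00268 and 0.00281), and Atp6v1h also passed without replicate 2 of resting WT (0.0394). In all 3 genes replicate 1 was above replicate 2 in every group.

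Read separately, with 2 arrays against 2, each genotype had fewer genes past the test than their mean. In WT, 12 of the 44 genes were lower (6.57% of all genes were) and 3 higher (3.97%). In DKO, 14 were lower (7.9%) and 3 higher (5.82%). The number lower in both was 11, the higher 3 were Ctsc, Cln3 and Gla each time, and 8 of the 23 genes lower in the mean passed in neither genotype alone. With the replicate block 27 were lower in WT and 29 in DKO, against 2569 and 2687 of all 10728 genes. These counts rest on single arrays. Leaving out any 1 array left fewer genes lower, among the 44 and among all genes, and calls of Ctsc, Cln3 and Gla were lost in some of these fits. In WT the median of the 44 was -0.50 and -0.35 without replicate 1 and replicate 2 of resting cells. It was -0.39 and -0.50 without replicate 1 and replicate 2 of activated cells. In DKO the medians were -0.70, -0.34, -0.43 and -0.55 in the same order. The median of all genes was -0.09 to -0.06 in these fits. A fit of the WT arrays alone called 0, one of the DKO arrays alone 8 lower, and 75th-percentile centring left 7 lower in WT. Among all genes 2, 326 and 312 were lower in these 3 fits.

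For single genes the differences of both genotypes stand side by side. Lipa differed by -2.08 ± 0.37 in WT and by -2.70 ± 0.37 in DKO, Dpp7 by -1.69 ± 0.17 and -2.27 ± 0.17, and Ctsd by -1.43 ± 0.18 and -1.33 ± 0.18. For Ctsc the differences were 1.31 ± 0.20 and 1.46 ± 0.20. Of the 44 genes 43 had the same sign in both genotypes, the exception being Ctsl, and the differences correlated at 0.976 across the 44 genes and at 0.941 across all 10728. Those correlations describe genes of one array set and are not over independent samples. The difference between the genotypes' responses was tested as an interaction in limma. No gene of the 10728 passed, lysosomal or other, and at an unadjusted p below 0.05 there were 121 genes, none of them among the 44. A miss of the threshold with 2 arrays per group does not show that the responses were equal.

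**Figure D3:**
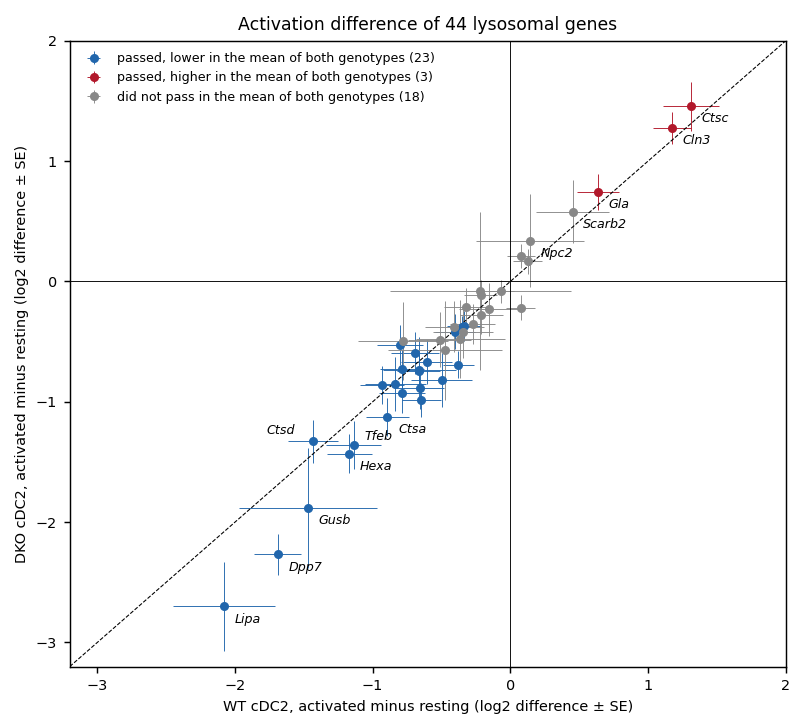
Activated minus resting difference (log2, ± SE from limma) of the 44 lysosomal genes in WT cDC2 (horizontal) and DKO cDC2 (vertical), coloured by the test of the mean of both genotypes; the dashed line marks equal differences. The 23 genes that fell lie at the lower left, down to Lipa at -2.08 and -2.70, and Ctsc, Cln3 and Gla at the upper right.

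Other genes of lysosome function were taken from lists that do not overlap the 44, and the same shares of all genes apply, 21.7% lower and 10.6% higher. Of a list of 23 further hydrolases and related lysosomal proteins, 11 fell and 2 rose, with a median of -0.26. Creg1, Acp2, Dnase2a and Hyal2 had the largest changes, at -0.94 ± 0.14, -0.93 ± 0.23, -0.89 ± 0.16 and -0.84 ± 0.13 (adjusted p = 0.00484, 0.0272, 0.00946 and 0.00558). Dnase2a degrades DNA taken up by the cell, Acp2 is an acid phosphatase and Hyal2 a hyaluronidase. Of 24 further membrane proteins 9 fell and 3 rose: the cystine exporter Ctns fell by 1.32 ± 0.18, Laptm5 by 0.99 ± 0.14 and the amino acid sensor Slc38a9 by 0.91 ± 0.14, while the sialomucin Cd164 rose by 0.71 ± 0.10.

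The further subunits of the proton pump moved much as all genes did. Of 15, 3 fell and 2 rose, near the shares of all genes, and the median was -0.11 against -0.08. Atp6v1c1 fell by 0.58 ± 0.14 and Atp6v0e by 0.55 ± 0.07, while the membrane subunit Atp6v0a1 rose by 1.21 ± 0.24 (adjusted p = 0.0124) and Atp6v1e1 by 0.35 ± 0.08. Among 20 genes of the TFEB family and of nutrient sensing at the lysosome 8 fell and none rose. Fnip2 and Flcn, partners in a complex that controls TFEB family proteins, fell by 0.97 ± 0.20 and 0.79 ± 0.11, the mTORC1 subunit Rptor by 0.94 ± 0.22 and the family member Tfec by 0.78 ± 0.13.

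Hydrolases reach the lysosome by a sugar tag and its receptors. Of 14 genes in mannose 6-phosphate tagging and sorting, 6 fell and none rose. The adaptor Gga2 fell by 1.18 ± 0.15, Nagpa, the enzyme that uncovers the tag, by 0.75 ± 0.11, the adaptor subunit Ap1s2 by 0.66 ± 0.15 and Gnptab, which starts the tag, by 0.42 ± 0.12. Of 24 genes of endosome and lysosome fusion 6 fell and 2 rose, again near the shares of all genes. Vps33a fell by 0.65 ± 0.07, Lyst by 0.59 ± 0.14 and Vamp8 by 0.52 ± 0.13, and the early endosome GTPase Rab5a rose by 0.56 ± 0.10.

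Of 6 protease inhibitors tested, cystatins and serpins among them, 3 rose and 1 fell, with a median of 0.57. Their action on the cathepsins of the list was not measured. Cst7, or cystatin F, which acts inside the endolysosomal pathway, rose by 2.68 ± 0.12 (adjusted p = 0.000231), Serpinb9 by 1.06 ± 0.12 and Serpinb1a by 0.99 ± 0.15, while the cytosolic inhibitor Cstb fell by 0.34 ± 0.10.

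Between genotypes no lysosomal gene passed the test, in resting cells, in activated cells or in their mean. Over all genes the test called 2 as lower in DKO in each of these comparisons (0.0186%) and none as higher. At an unadjusted p below 0.05, 10 of the 44 genes and 1157 of all genes lay in the mean of both states, 7 and 707 in resting, and 8 and 638 in activated cells. Of the 44 differences, 31 were below 0 in DKO, against 46.5% of all genes, with a median of -0.10 against 0.01. The median was -0.16 with quantile normalization and -0.19 with the stricter filter on dim genes, which tested 37 of the 44. Without replicate 2 of resting WT cDC2 the median was -0.092 and no lysosomal gene passed. One gene, Ctsb, had every DKO array below every WT array of the 8, as 1.19% of all genes did, and 1.38% had the reverse.

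With the replicate number as a block, 7 lysosomal genes passed in the mean of both states, all lower in DKO, against 279 lower and 320 higher among all genes. Ctsb differed by -0.51 ± 0.07 (adjusted p = 0.075 without the block and 0.0101 with it), Gla by -0.67 ± 0.11 (0.117 and 0.00912) and Ctsa by -0.65 ± 0.11 (0.126 and 0.026). Npc1 differed by -0.48 ± 0.13 (0.261 and 0.0347) and Lipa by -0.79 ± 0.26 (0.327 and 0.0377). Grn and Psap, whose replicates lay far apart, differed by -0.86 ± 0.46 (0.574 and 0.0212) and -0.46 ± 0.23 (0.552 and 0.0401). In resting cells alone the block called Gla, at -0.73 (0.0464), and no lysosomal gene in activated cells alone.

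The per-array values quoted for Gla show the gap: 8.32 and 8.36 in resting WT against 7.52 and 7.71 in resting DKO, and 8.78 and 9.18 against 8.32 and 8.40 after activation. Dpp7 ran the other way at rest, 0.56 ± 0.17 higher in DKO (adjusted p = 0.633). No marker of other myeloid cells passed between genotypes either. In the mean of both states, 5 of 7 macrophage and 5 of 5 monocyte markers had differences below 0, with medians of -0.53 and -0.49, and 4 of 4 neutrophil markers had differences above 0, with a median of 0.13. The macrophage list mean was 6.16 to 6.46 on DKO and 6.45 to 6.68 on WT cDC2 arrays, and the part of these markers in the lysosomal differences was not tested.

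**Figure D4:**
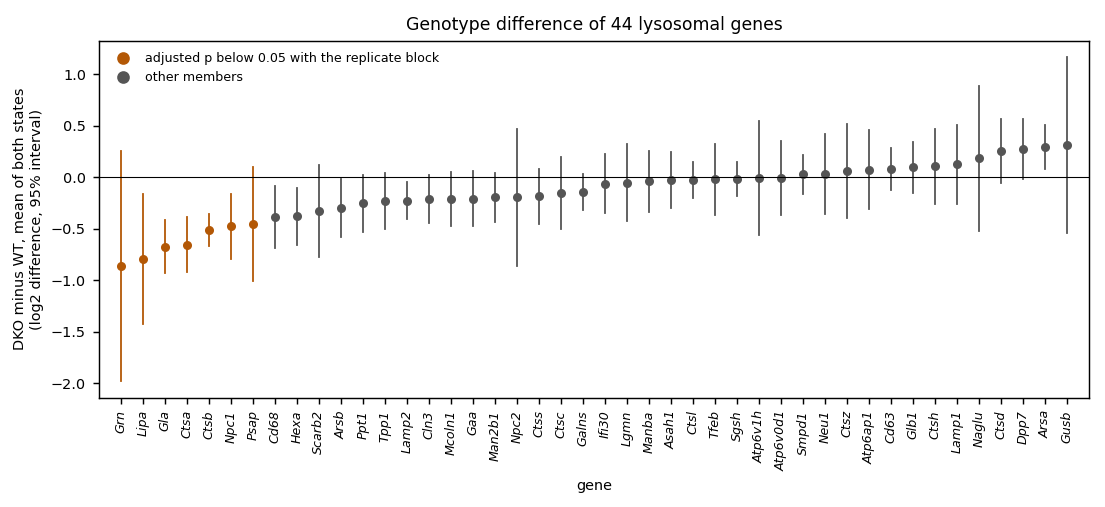
DKO minus WT difference (log2, mean of resting and activated cDC2) of the 44 lysosomal genes, with 95% intervals from limma, in order of size. None passed after adjustment over all genes; the 7 coloured genes, from Grn at -0.86 to Psap at -0.46, passed with the replicate number as a block.

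Gusb and Ppt1 were higher and Ctsb lower in resting cDC1 than in resting cDC2. On the lone cDC1 array 5 of the 44 genes were higher (7.08% of all genes were) and 3 lower (6.56%) than on the 2 resting WT cDC2 arrays, with a median of 0.20 against -0.01 for all genes. The shares called lie near those of all genes. With 1 array in a group, the spread is taken from the other groups, and the fit assumes that cDC1 varies like them. Restricting the fit to these groups left no call among the 44.

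Ppt1 read 10.71 in cDC1 against 7.71 and 7.65 in resting WT cDC2, 3.02 ± 0.20 higher (adjusted p = 0.000812). Gusb read 11.45 against 7.34 and 7.95, 3.81 ± 0.61 higher (adjusted p = 0.0126). For each, the cDC1 value lay above all 8 cDC2 arrays, the highest of which were 7.71 and 8.78. Ctsb was lower in cDC1, at 10.95 against 11.79 and 11.82 (a difference of -0.85 ± 0.11, adjusted p = 0.00723). These 3 calls held when either resting WT cDC2 array was left out.

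The other 5 did not hold in full. Scarb2 (1.67 ± 0.32, adjusted p = 0.0219) was lost without replicate 1 of resting WT cDC2 (0.067). Cln3 (0.97 ± 0.17, 0.0159) and Cd68 (-0.89 ± 0.21, 0.0427) were lost without replicate 2 (0.0607 and 0.111). Man2b1 (0.79 ± 0.17, 0.0313) had an adjusted p of 0.0566 and 0.0983 without replicate 1 and replicate 2, and Ctsa (-0.79 ± 0.19, 0.0435) of 0.136 and 0.0724. The interferon-stimulated genes, which averaged 8.84 in cDC1, differ between those 2 cDC2 arrays, and their part in these differences was not tested.

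Against all 8 cDC2 arrays, resting and activated, the cDC1 array was the highest for 19 of the 44 genes (43.2%, against 25.5% of all genes) and the lowest for none (22.0% of all genes). Activated arrays extend the cDC2 range downward for genes lower after activation, so the last count says little about resting cells. Against the 4 resting cDC2 arrays alone, cDC1 was the lowest for Ctsb, Ctsz, Ctsa, Lgmn, Cd63, Cd68, Gaa and Tfeb. The share of all genes for which this holds was not computed. Manba is one of the 19 and was tested only through its cDC1 level. Counting only genes above the filter in a cDC2 group, a restriction added after these values were seen, the cDC1 array was the highest for 18 of 43 (41.9%, against 23.6% of all such genes). Lipa, at 11.84 in cDC1, lay within the cDC2 range of 8.17 to 11.95. Dpp7 read 8.99 in cDC1, the same to this precision as the highest cDC2 array. Of the further lists, 6 of the 23 hydrolases and related proteins were higher and 1 lower in cDC1. Of 15 further proton pump subunits, 14 had positive differences, 4 of which passed. Of all genes tested 7.08% were higher and 6.56% lower, and their median difference was -0.01. Other further lists are not given for cDC1.

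**Figure D5:**
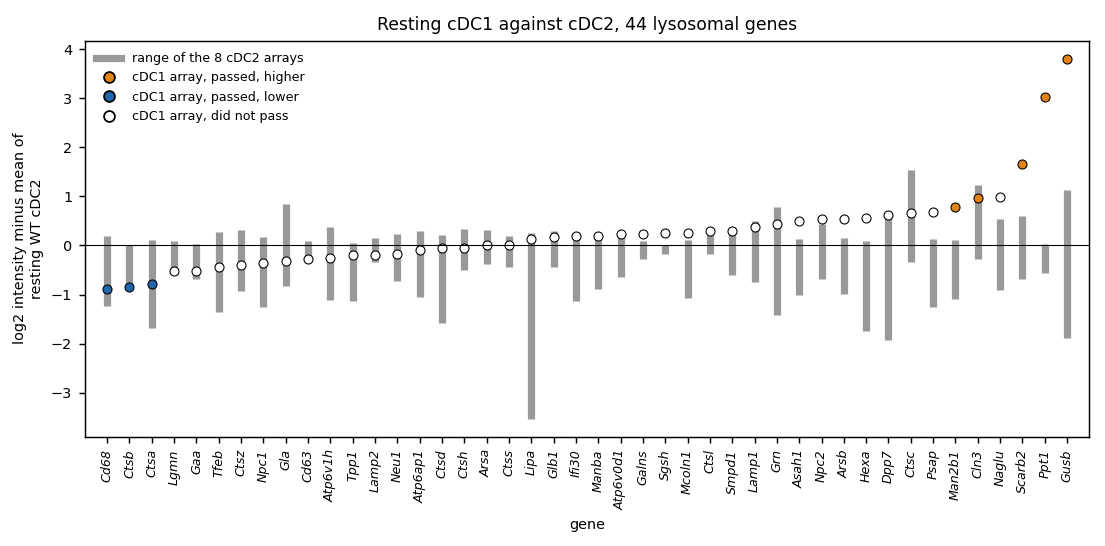
Log2 intensity of the 44 lysosomal genes on the cDC1 array minus the mean of resting WT cDC2 (points), with the range of all 8 cDC2 arrays on the same scale (grey bars). Gusb and Ppt1, at 3.81 and 3.02, lie far above their bars, and Ctsb, Cd68 and Ctsa are the 3 called lower.

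The replicate number ordered many lysosomal genes in the same way in every group. Replicate 2 was above replicate 1 in all 4 cDC2 groups for 15 of the 44 genes (34.1%, against 23.9% of all genes) and below it for 4 (9.09%, against 19.0%). The mean gap was largest for Grn, at 1.12, followed by Gusb at 0.80, Naglu at 0.71, Npc2 at 0.65 and Psap at 0.53. In the opposite direction were Atp6v1h at -0.51, Atp6v0d1 at -0.34, Atp6ap1 at -0.29 and Lamp2 at -0.11.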

How the data were processed

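Per the labels, biotinylated cDNA was made with the Affymetrix WT Pico kit from 100 pg to 2 ng of total RNA. The authors deposited linear intensity values made with RMA in Affymetrix Expression Console, per the submitters' processing notes. Genome build and software versions are not given in the sources used here. Of 28853 probe sets, 21789 had 1 gene symbol in the platform annotation, 1621 several and 5443 none. Only the first kind was used, with the brightest set per gene, and log2 of the deposited intensity was taken with no pseudocount. A gene was tested if a group mean exceeded 5.94 (log2), the median of all values. All 44 lysosomal genes passed. Manba did so through 1 group, Ctsl and Sgsh through 2 and Naglu through 3. limma 3.58.1 (R 4.3.3) fitted 5 group means to 9 arrays, which leaves 4 residual degrees of freedom. P-values are two-sided. On simulated arrays of the mean activation comparison (10728 genes, 200 changed), 37.5%, 84.5% and 97% of changes of -0.5, -1 and -2 were called. The simulated arrays varied independently, without the deviation that same-numbered arrays shared, and fewer genes changed than were called in the data. The recovered shares therefore need not hold for the real arrays.

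Same-numbered arrays deviated together across groups (correlations 0.454 to 0.695 for the 6 pairs of groups). The main fits did not use the replicate number, so their counts, SEs and adjusted p-values ignore this. An alternative fit took the numbers in the titles as pairs, and its blocked values stand beside results that they change. The members and lists were chosen with earlier results of these data known. All 26 genes that passed in an activation comparison are given array by array, the further lists by up to 4 genes of largest change, and the genotype and subset comparisons by calls or smallest p. Promoter windows are RefSeq's.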

Additional observations from a re-analysis of the deposited data

Results flagged for a closer look

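One result was marked because the arrays moved in opposite directions in the 2 genotypes. Ctsl, the cysteine protease cathepsin L, differed by 0.08 ± 0.10 after activation in WT and by -0.22 ± 0.10 in DKO cDC2. Both activated WT arrays (5.98 and 5.90) lay above both resting WT arrays (5.84 and 5.88), and both activated DKO arrays (5.70 and 5.83) lay below both resting DKO arrays (5.90 and 6.07). The interaction was -0.30 and did not pass limma's test after adjustment over all genes. All of these levels are close to the filter on dim genes, at 5.94. Only the resting DKO and cDC1 means of Ctsl exceeded that filter. How often genes outside the list had opposite arrays of this kind was not computed.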

How the results depend on the processing

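No result changed direction past the test under any alternative. For the mean of both genotypes, leaving out 1 array gave medians of -0.59 to -0.42 for the lysosomal genes. For all genes they were -0.08 to -0.07. The 75th-percentile centring gave 5 higher (1693 of all genes), and for WT alone 7 lower (312 of all genes) and a median of -0.31. The stricter filter, which tested 37 of the 44 genes, gave a median of -0.64. Fits of only the groups compared gave 0 lower and 0 higher in WT, 8 lower in DKO, and 0 higher and 0 lower in cDC1 against cDC2. Fewer lysosomal genes were lower in cDC1 without the filter (1) and with an intensity trend (1).

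With the replicate block, 27 genes were lower in WT, 29 in DKO, 1 in resting and 7 in the mean genotype comparison, and it changed no other count by over 1.5 times. Among all genes 2569, 2687, 45 and 279 were lower in the same order. The cDC1 array carries no number, so no paired fit was made for it.

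Leaving out 1 array gave 1 to 4 lower and 0 to 3 higher in WT, 3 to 9 lower and 1 to 2 higher in DKO with medians of -0.70 to -0.34, an interaction median of -0.18 to 0.062, and an activated genotype median of -0.24 to -0.069. Against cDC1 it gave 3 higher and 1 to 2 lower. Where a group kept 1 array, that array was assumed to vary like the others. The cause of these changes was not tested. The number of arrays limits the precision.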
